A study of Mus musculus with 8 samples.

Results

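Matrix metalloproteinases (Mmps) are zinc-dependent enzymes that cut collagens, fibronectin, laminins and other proteins of the extracellular matrix, and tissue inhibitors of metalloproteinases (Timps) are secreted proteins that block their active site. The measurements described here are those of 7 Mmps (Mmp2, Mmp3, Mmp9, Mmp10, Mmp11, Mmp13 and Mmp14) and 3 Timps (Timp1, Timp2 and Timp3), 10 genes of the 39017 in the count table. They were chosen by gene family and matched by Ensembl identifier. The list was drawn up with earlier results of these data known, in which Mmp13 in total RNA and Mmp3 in the granule fraction had already been singled out for their difference between genotypes. Those values are given here as a description, without a test, and nothing is read from the number of the 10 genes called between genotypes.

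The cells were mouse embryonic fibroblasts derived from E13.5 embryos. In the knockout cells Mettl3, which encodes the catalytic subunit of the m6A RNA methyltransferase, was deleted by a Cre recombinase that 4-hydroxytamoxifen activates (500 nM for 48 h), and its loss was checked after 7 days. The labels do not say which promoter drives the Cre, nor whether the control cells received the drug. The total RNA libraries represent unstressed cells, and the granule fraction was enriched by centrifugation from cells given 500 uM sodium arsenite for 30 min. Poly(A) RNA of 2 biological replicates was sequenced for each genotype and fraction, giving 4 groups of 2. Fraction and stress changed together, so they cannot be told apart, and fewer expressing cells cannot be told apart from less RNA per cell.

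Fibroblasts are a main source of these enzymes. Stromelysins (Mmp3, Mmp10) cut many matrix proteins and also activate other Mmps, collagenases (Mmp13) cut fibrillar collagen, and gelatinases (Mmp2, Mmp9) cut denatured collagen. Most are secreted as inactive proenzymes and several are induced by stress and inflammatory signals through AP-1, the Fos and Jun transcription factor. Mmp14 is instead anchored in the plasma membrane and, together with Timp2, activates pro-Mmp2 at the cell surface. RNA levels carry no information on proenzyme activation.

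Total counts ranged from 67257220 to 123508539 per library, so that 3 counts correspond to 0.0264 to 0.0441 CPM (counts scaled to the size and composition of the library). Replicates of a group differed by a median of 0.101 (control granule), 0.134 (knockout granule), 0.312 (control total) and 0.813 (knockout total) on the log2 scale, in either direction, over 10217 genes whose mean reached 5 CPM. The replicates of knockout total differed along GC content (Spearman rho -0.714 across genes), and those of control total did so in the opposite sense (0.740). Mitochondrial transcripts took 7.60% of the counts of knockout total replicate 1 and 6.16% and 8.81% of the knockout granule libraries, against 0.590% to 0.881% in the other 5 libraries. All 8 fibroblast markers were detected in every library, with summed levels of 3173 to 7023 CPM, although Pdgfra stood at 1.39 to 3.47 CPM. The 4 epithelial markers, mostly Krt18, summed to 204 to 336 CPM in control total, 677 to 713 in control granule, 49.2 to 89.5 in knockout total and 527 to 664 in knockout granule libraries. Mettl3 stood at 24.9 to 25.4 CPM in control total, 15.4 to 15.7 in control granule, at most 7.35 in knockout total and 5.56 to 6.38 in knockout granule libraries. The knockout libraries lay below the controls in each fraction (log2 fold changes of -1.91, adjusted p = 0.0345, and -1.38, adjusted p = 0.0208, edgeR's quasi-likelihood test).

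Mmp13, Mmp3 and Mmp10 lie within 1 cluster of 10 Mmp genes that spans 427 kb of chromosome 9 (7272514 to 7699585, GRCm38). The 250 bases before their RefSeq start sites (GRCm38.p6, plus strand) are printed because these 3 genes, neighbours in the genome, had the widest fold ranges over the 8 libraries among the 10 (96.7-fold, 55.1-fold and 24.3-fold). Capitals mark the AP-1 heptamer (TGAGTCA or its reverse complement TGACTCA) and TATAAA, the letters of the TATA box. The windows are chr9:7272264-7272513, chr9:7445572-7445821 and chr9:7502092-7502341.
Mmp13: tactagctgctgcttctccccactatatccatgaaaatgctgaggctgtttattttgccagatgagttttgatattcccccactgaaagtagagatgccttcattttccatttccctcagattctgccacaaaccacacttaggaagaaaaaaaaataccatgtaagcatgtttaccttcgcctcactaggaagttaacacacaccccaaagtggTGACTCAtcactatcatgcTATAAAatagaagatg
Mmp3: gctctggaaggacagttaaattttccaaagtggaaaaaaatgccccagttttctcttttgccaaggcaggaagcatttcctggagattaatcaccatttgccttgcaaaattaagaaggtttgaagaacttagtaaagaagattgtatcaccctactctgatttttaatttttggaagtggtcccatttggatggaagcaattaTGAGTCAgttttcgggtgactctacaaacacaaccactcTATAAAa
Mmp10: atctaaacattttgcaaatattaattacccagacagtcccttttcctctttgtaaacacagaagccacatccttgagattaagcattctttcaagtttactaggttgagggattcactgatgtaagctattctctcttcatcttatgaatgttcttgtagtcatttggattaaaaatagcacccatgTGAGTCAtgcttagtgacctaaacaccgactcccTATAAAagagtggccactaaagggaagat
The AP-1 heptamer lies 35 to 29 bases before the start of Mmp13 (on the minus strand), 46 to 40 before that of Mmp3 and 63 to 57 before that of Mmp10. TATAAA follows it at 16 to 11, 7 to 2 and 29 to 24 bases before the start, in the same order. These distances depend on the RefSeq starts, and whether each match works as a TATA box was not tested.

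Searched on both strands over 32851 RefSeq windows of 250 bases, the AP-1 heptamer was found in 4.46%, TATAAA in 12.4% and both in 0.721%. Within the chromosome 9 cluster the heptamer was found in 7 of 12 windows, those of Mmp13, Mmp12, Mmp1b, Mmp3, Mmp1a, Mmp10 and Mmp7. Of the 13 windows of family members elsewhere in the genome, 0 held it, including those of Mmp11, Mmp14, Timp1, Timp2 and Timp3. A window was found for 8 of the 10 genes, and Mmp2 and Mmp9 were without one. The RUNX motif AACCACA, found in 4.40% of all windows, was in 3 of the cluster's windows, that of Mmp13 among them, and in 0 of the others. A match describes the letters and does not show that a factor binds there.

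Mmp3 (ENSMUSG00000043613, chromosome 9, 7445822 to 7455975), stromelysin-1, had the widest fold range over the libraries after Mmp13. Its level was 28.7 and 33.9 CPM in control total, 12.3 and 11.4 in control granule, 186 and 376 in knockout total and 626 and 309 in knockout granule libraries. Every knockout library lay above every control library, and the knockout replicates lay 2.02-fold (total) and 2.03-fold (granule) apart. In knockout total RNA Mmp3 rose by 3.17 log2 units (SE 0.46, adjusted p = 0.0397). The corresponding log2 fold change in granules was 5.30 (SE 0.51).

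Mmp10 (ENSMUSG00000047562, chromosome 9, 7502352 to 7510240), stromelysin-2, read 5.00 and 4.66 CPM in control total, 3.75 and 3.66 in control granule, 25.6 and 23.4 in knockout total and 89.0 and 52.6 in knockout granule libraries. The groups did not overlap in any comparison, and its knockout total replicates lay 1.09-fold apart. Mmp10 rose in knockout cells by 2.34 log2 units in total RNA (SE 0.32, adjusted p = 0.0345) and by 4.26 in granules (SE 0.35, adjusted p = 0.00272). The spliced transcripts of Mmp3 and Mmp10 share sequence: 8.37% of the 50-base stretches of Mmp10 occur in Mmp3, so their counts depend in part on how shared reads were assigned.

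Mmp13 (ENSMUSG00000050578, chromosome 9, 7272514 to 7283331), collagenase-3, had 9.46 and 14.2 CPM in control total, 5.88 and 6.29 in control granule, 569 and 179 in knockout total and 51.5 and 33.0 in knockout granule libraries. It was highest in the libraries of unstressed knockout cells, where its replicates lay 3.18-fold apart, and the 4 groups did not overlap. The log2 fold change between genotypes in total RNA was 4.98 (SE 0.61). It was 3.91 without knockout total replicate 1 and 5.69 without replicate 2. In granules Mmp13 rose by 2.80 in knockout cells (SE 0.55, adjusted p = 0.0235).

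Mmp13 is also a product of hypertrophic cartilage and bone cells, so markers of those lineages were measured beside it. The 5 bone markers summed to 23.4 to 28.8 CPM in control total and 79.5 and 43.4 CPM in knockout total replicates 1 and 2, the order in which Mmp13 stood. Most of this sum was Runx2 (22.8 and 27.9 against 78.2 and 41.5 CPM), a transcription factor that is also a known inducer of Mmp13. Bglap had 3 and 7 counts in control total against 28 and 35 in knockout total, and 4 and 8 in control granule against 47 and 38 in knockout granule libraries. Alpl stood at 0.588 and 0.734 CPM in control total and 0.971 and 1.51 CPM in knockout total, and Sp7 and Ibsp had at most 5 counts in the total libraries. The median difference between genotypes in total RNA was 1.07 over the 4 bone markers tested, against 0.02 over all genes. The 4 cartilage markers summed to 28.0 to 33.3 CPM in control total and 24.3 and 37.3 CPM in knockout total, mostly Sox9, with Col2a1 under 1 CPM in every library and Acan at 0 in both knockout total libraries. In granules the bone markers summed to 84.3 to 91.9 CPM in control and 97.5 to 108 CPM in knockout libraries. The part of these cell types in the Mmp13 values was not tested.

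Mmp14 (ENSMUSG00000000957, chromosome 14, 54431612 to 54445364), the membrane-bound activator of pro-Mmp2, had 263 and 209 CPM in control total, 278 and 242 in control granule, 189 and 250 in knockout total and 1213 and 1072 in knockout granule libraries. The other 3 groups overlapped, and the knockout granule libraries stood above them. Mmp14 rose by 2.13 in knockout granules against control granules (SE 0.28, adjusted p = 0.0075). The mitochondrial share was raised in both knockout granule libraries and in knockout total replicate 1, where Mmp14 was lowest. The part of this share in the Mmp14 values was not tested. In total RNA the difference was -0.10, with a 95% interval of -0.72 to 0.51 (adjusted p = 0.822).

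Mmp2 (ENSMUSG00000031740, chromosome 8, 92827291 to 92853420), gelatinase A and the substrate of that activation, followed a like course. Its values were 89.5 and 74.9 CPM in control total, 73.6 and 72.4 in control granule, 74.3 and 142 in knockout total and 333 and 248 in knockout granule libraries. The knockout granule libraries were again the highest, and the total libraries of the genotypes overlapped. Mmp2 rose by 1.99 in knockout granules (SE 0.36, adjusted p = 0.0181) and differed by 0.40 in total RNA (interval -0.40 to 1.19, adjusted p = 0.477).

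Mmp11 (ENSMUSG00000000901, chromosome 10, 75923222 to 75936496), stromelysin-3, a stromal enzyme that is activated inside the cell, had 90.2 and 80.5 CPM in control total, 39.1 and 37.3 in control granule, 31.3 and 75.1 in knockout total and 72.2 and 61.5 in knockout granule libraries. Its genotype differences ran in opposite directions in the fractions, -0.68 in total RNA (SE 0.39, adjusted p = 0.304) and 0.81 in granules (SE 0.39, adjusted p = 0.225), and neither passed. Mmp9 (ENSMUSG00000017737, chromosome 2, 164940780 to 164955850), gelatinase B, was the lowest of the 10 genes, with 1.11 to 4.86 CPM over all libraries. Its knockout total values (3.40 and 4.86 CPM) lay above its control total values (1.22 and 2.68 CPM), a difference of 1.08 log2 units (SE 0.44, adjusted p = 0.185). Mmp9 is a major product of neutrophils and macrophages. Neutrophil markers summed to 27.0 to 66.4 CPM with Mpo and Elane near 0, with the genotypes overlapping in both fractions. Macrophage markers, all 6 detected, summed to 65.6 and 79.7 CPM in control total, 56.9 and 57.8 in knockout total, 54.2 and 56.3 in control granule and 64.5 and 66.4 in knockout granule libraries, so that knockout was lower in total RNA and higher in granules. Their part in the Mmp9 values was not tested.

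The 3 inhibitors were not called in any of the 5 comparisons in edgeR's quasi-likelihood test over all 8 libraries. At an unadjusted p under 0.05 stood only Timp3, in knockout granule against total and in the interaction, and DESeq2 called none of the 3 as well. Timp2 (ENSMUSG00000017466, chromosome 11, 118301069 to 118355740), which both inhibits Mmps and takes part in pro-Mmp2 activation, had 762 and 608 CPM in control total, 773 and 768 in control granule, 739 and 687 in knockout total and 902 and 848 in knockout granule libraries. Timp1 (ENSMUSG00000001131, chromosome X, 20870166 to 20874735), an inducible soluble inhibitor, had 99.8 and 93.2, 87.3 and 104, 123 and 74.1, and 94.0 and 86.3 CPM in the same order. Its genotype difference was 0.03 in total RNA (interval -0.65 to 0.71) and -0.08 in granules (interval -0.76 to 0.60), so that a log2 change beyond 0.76 in size lies outside both intervals. For Timp2 the intervals ran from -0.50 to 0.62 in total RNA and from -0.38 to 0.75 in granules.

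Timp3 (ENSMUSG00000020044, chromosome 10, 86300372 to 86349506), the inhibitor that binds to the matrix, had 95.3 and 102 CPM in control total, 143 and 123 in control granule, 182 and 98.9 in knockout total and 94.9 and 61.0 in knockout granule libraries. In granules the genotypes did not overlap, the knockout being lower, with a difference of -0.77 (SE 0.36) that did not pass (adjusted p = 0.201). Its count is uncertain, since exons of Syn3, the gene it lies within, overlap 21.3% of its exonic bases. Whether counting used strand is not given in the sources used here. In addition, 36.3% of the 50-base stretches of its transcript occur, on either strand, in transcripts of other genes (436 genes), so its count also depends on how shared reads were assigned.

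**Figure D1:**
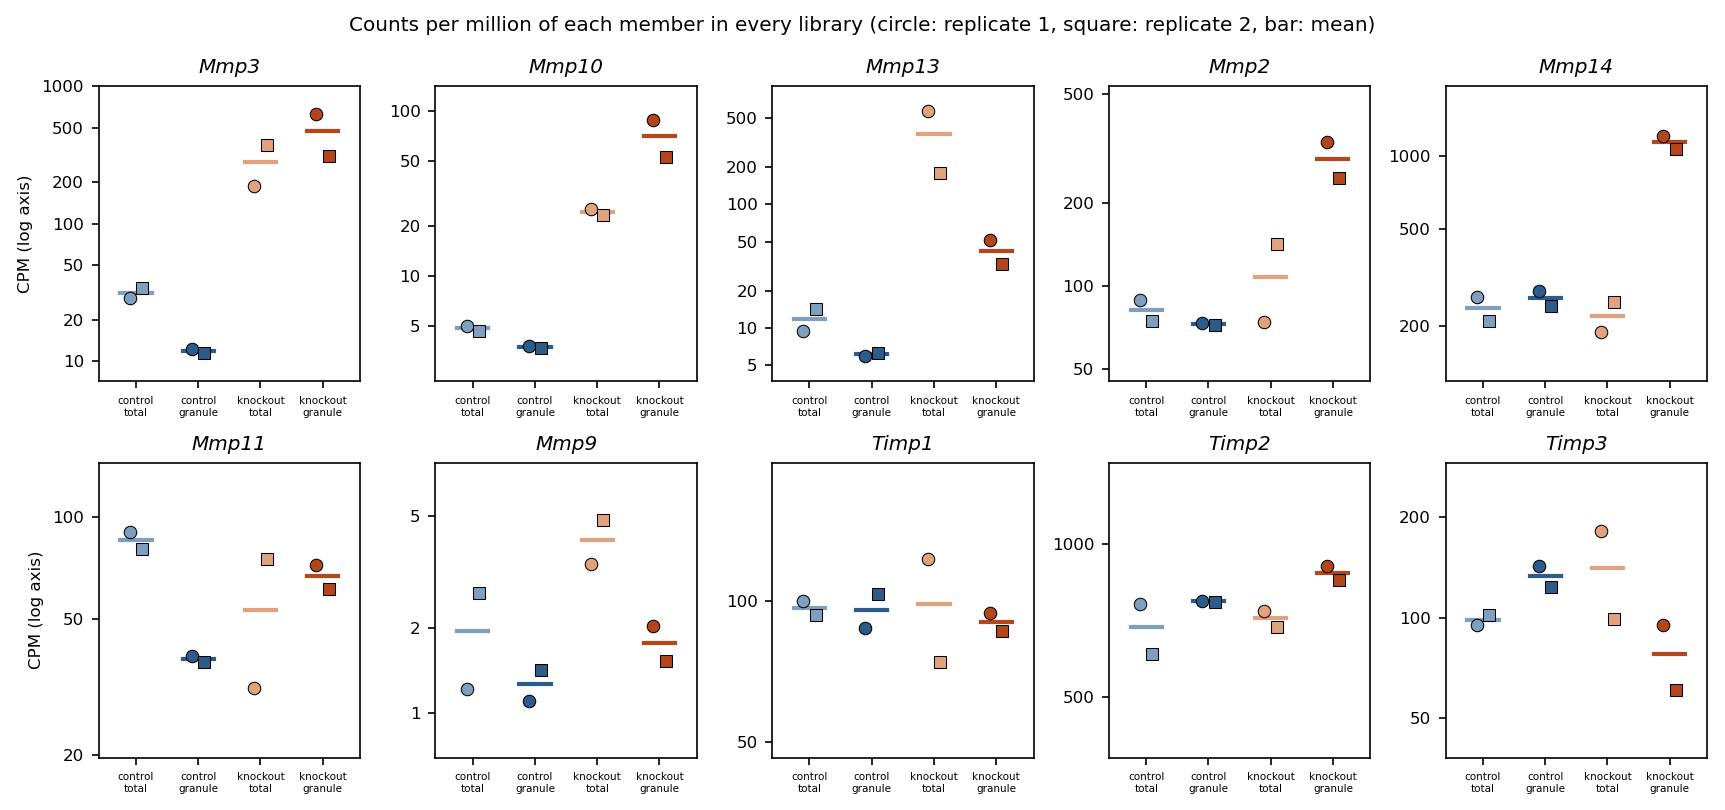
Level of each of the 10 genes in every library, in CPM on a log axis, with 1 point per library and the 4 groups in separate columns. Mmp3, Mmp10 and Mmp13 separate by genotype in both fractions, Mmp2 and Mmp14 are highest in the knockout granule libraries (248 to 333 and 1072 to 1213 CPM), and Timp1 (74.1 to 123 CPM) and Timp2 (608 to 902 CPM) span narrower ranges.

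Between genotypes in total RNA, edgeR's quasi-likelihood test with Benjamini-Hochberg adjustment over 18952 genes called 2 of the 9 genes other than Mmp13, namely Mmp3 and Mmp10, both higher in knockout cells. Of all genes tested 0.412% were called, 0.274% as higher, and nothing is read from the count beside this share. The median log2 fold change was 0.74 over the 6 Mmps other than Mmp13 and 0.06 over the 3 Timps, against 0.02 over all genes tested. In edgeR these calls were lost, as were those of all other genes, in each fit that left out 1 library of control total, control granule or knockout granule. Over the fits that left out 1 library the log2 fold change was 2.68 to 3.59 for Mmp3 and 2.28 to 2.51 for Mmp10. When only the 4 total libraries were fitted, 0 of the 9 and 0 of all genes were called. At an unadjusted p under 0.05 stood 2 of the 9, and 10.2% of all genes. With library size scaling 0 of the 9 were called (0.195% of all genes), and 2 stood at an unadjusted p under 0.05 (21.9% of all genes). Without knockout total replicate 1 the log2 fold change of Mmp2 became 0.80. Without replicate 2 that of Mmp11 became -1.34 and that of Timp3 became 0.99.

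In granules 4 of the 9 genes other than Mmp3 were called, Mmp2, Mmp10, Mmp13 and Mmp14, all higher in knockout cells. Of all genes 9.45% were called, 5.79% as higher, and again nothing is read from the count. The 6 Mmps other than Mmp3 had knockout granule values above the control granule values, as 40.4% of all genes did. The median log2 fold change was 2.06 over these 6 and -0.08 over the Timps, against 0.08 over all genes. Leaving out control granule replicate 1 or replicate 2 lost every call in edgeR, among these genes as among all genes. Leaving out either knockout granule library kept only that of Mmp10 among the 9, and most calls of all genes were lost as well. Over the fits that left out 1 library the log2 fold change was 1.71 to 2.18 for Mmp2 and 3.78 to 4.58 for Mmp10. It was 2.39 to 3.07 for Mmp13 and 1.98 to 2.21 for Mmp14. Leaving out either control total library, which is outside the comparison, lost Mmp13 (4.13% and 3.67% of all genes called), and leaving out either knockout total library added Mmp11 and, as lower, Timp3 (at least 38.9% in each).

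**Figure D2:**
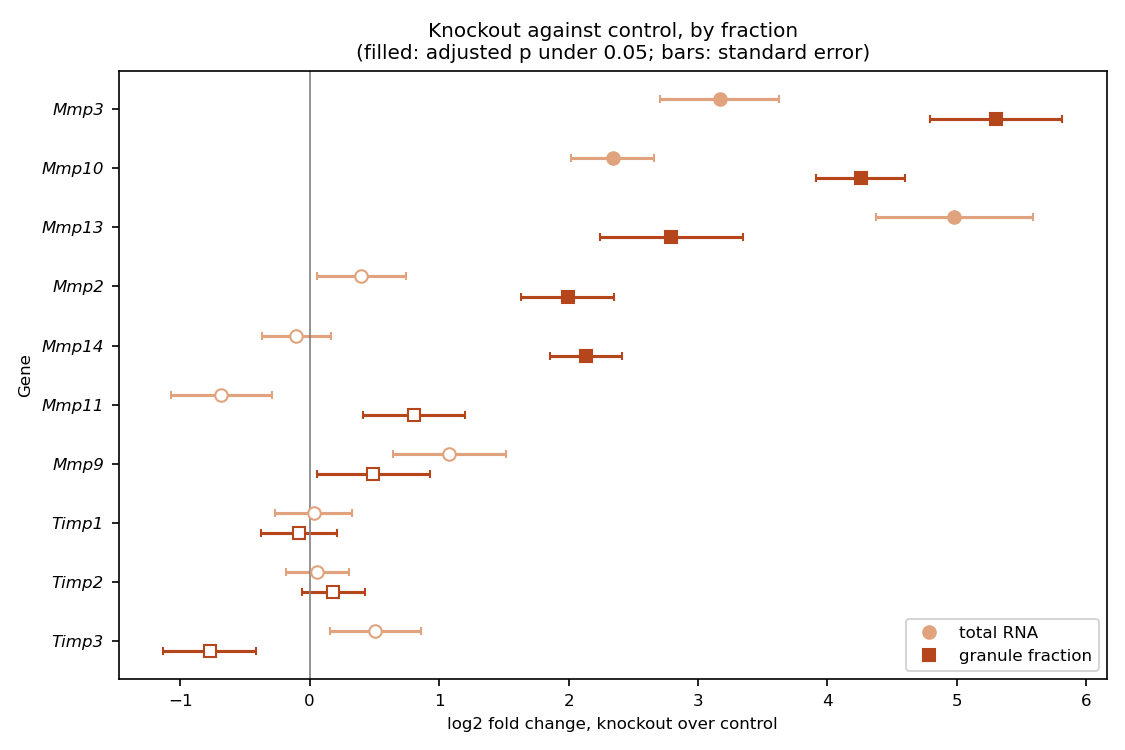
Log2 fold change of knockout against control for each gene in total RNA and in granules. Bars are standard errors from the model over all 8 libraries. In granules the 95% intervals, which are not drawn, lie above 0 for Mmp2, Mmp10, Mmp13 and Mmp14 and include 0 for the Timps. Mmp3, already singled out in this fraction, is shown there as a description.

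The granule fraction of stressed cells was next set against total RNA of unstressed cells within each genotype. In control cells edgeR's quasi-likelihood test called 0 of the 10 genes, with 10.1% of all genes called. Mmp3 and Mmp11 passed an unadjusted p under 0.05, at log2 fold changes of -1.40 (SE 0.43, adjusted p = 0.0759) and -1.16 (SE 0.40, adjusted p = 0.0968), and DESeq2 called both of them as lower. Of all genes 30.0% passed the unadjusted threshold and 23.8% were called by DESeq2. Of the 7 Mmps 5 had granule values below the total values in control cells (37.3% of all genes did), and the median was -0.63. Mmp14 (0.14) and Timp2 (0.17) kept close to the median of all genes, -0.06. With only the 4 control libraries fitted, or without either knockout total library, Mmp3, Mmp11 and Mmp13 were called lower, in fits that called 42.4%, 40.6% and 39.9% of all genes.

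In knockout cells the same comparison called 4 of the 10 genes, 3 higher and 1 lower, against 17.6% of all genes (9.17% higher and 8.47% lower). Mmp14 rose by 2.38 (SE 0.28, adjusted p = 0.00334), Mmp10 by 1.53 (SE 0.31, adjusted p = 0.0165) and Mmp2 by 1.42 (SE 0.35, adjusted p = 0.0309). Mmp13 fell by 3.14 (SE 0.56), which became -2.09 without knockout total replicate 1 and -3.88 without replicate 2. Its knockout total values were those for which it had been singled out, so its call is given as a description. Mmp3 stood at 0.73 (SE 0.43, adjusted p = 0.264) with overlapping groups. The remaining differences were -1.21 for Mmp9 (adjusted p = 0.0913), -0.85 for Timp3 (adjusted p = 0.135) and between -0.13 and 0.33 for Mmp11, Timp1 and Timp2. When only the 4 knockout libraries were fitted, 0 of the 10 and 0 of all genes were called in edgeR. At an unadjusted p under 0.05 stood 5 of the 10, and 24.1% of all genes. Without control granule replicate 1 or 2 the calls were Mmp13 and Mmp14, without knockout granule replicate 1 or 2 the call was Mmp14 alone, and without control total replicate 1 or 2 Mmp2 was lost. These fits called 7.79%, 7.72%, 1.47%, 1.22%, 10.3% and 9.99% of all genes, in that order. Without knockout total replicate 1 Mmp9 was called as well (34.0% of all genes called), and without replicate 2 Mmp3, Mmp11, Timp1 and Timp3 were added instead (48.2%).

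**Figure D3:**
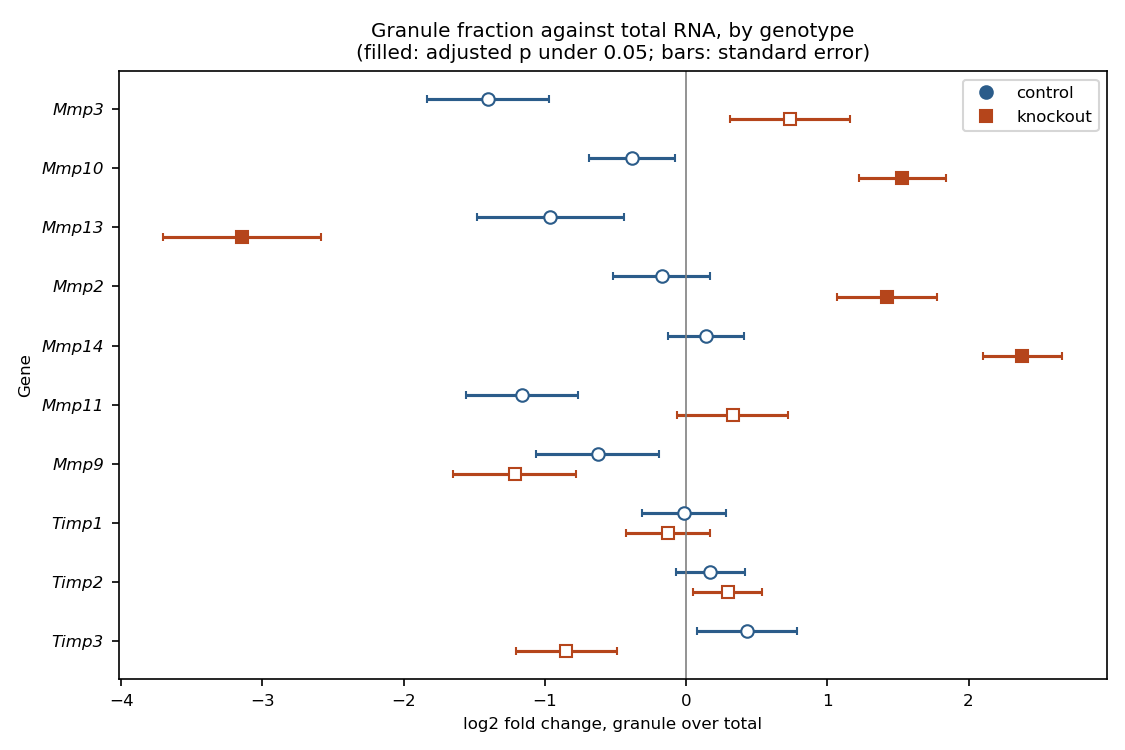
Log2 fold change of granule against total for each gene in control and in knockout cells. Bars are standard errors from the model over all 8 libraries. The 95% intervals of Mmp2, Mmp10 and Mmp14, which are not drawn, lie above 0 in knockout cells and include 0 in control cells. Mmp13 lies at -0.96 in control and -3.14 in knockout cells.

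An interaction term tested if the granule to total ratio of a gene depended on genotype. It passed for 0 of the 10 genes in edgeR's quasi-likelihood test, where 0.517% of all genes were called, with 7 of the 10 at an unadjusted p under 0.05 (25.8% of all genes). DESeq2 called 5, Mmp2, Mmp3, Mmp10, Mmp13 and Mmp14, and 16.8% of all genes. Mmp14 had a difference of 2.24 (SE 0.38, adjusted p = 0.0567), Mmp3 of 2.14 (SE 0.61, adjusted p = 0.107) and Mmp10 of 1.91 (SE 0.43, adjusted p = 0.0860). Mmp13 had the opposite sign, at -2.18 (SE 0.74, adjusted p = 0.132). The interactions of Mmp3 and Mmp13 rest in part on the values for which they had been singled out. Nothing is read from their tests or calls. The difference was -0.11 for Timp1 and 0.12 for Timp2, with intervals of -1.08 to 0.85 and -0.67 to 0.92. Without knockout total replicate 1 Mmp2, Mmp3, Mmp10, Mmp11 and Mmp14 were called (18.6% of all genes), and without replicate 2 Mmp13 and Timp3 as well (46.4%).

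Levels of different genes were compared as CPM per kilobase of spliced transcript. In control total RNA the order ran from Timp2 (185) and Timp1 (109) through Mmp14 (72.8), Mmp11 (37.3), Mmp2 (26.7), Timp3 (20.9) and Mmp3 (17.4) to Mmp13 (4.43), Mmp10 (2.81) and Mmp9 (0.614). Control granules kept Timp2 (208), Timp1 (108) and Mmp14 (80.3) at the top. In knockout total RNA Mmp3 (156 ± 74.4, SD, n = 2) and Mmp13 (140 ± 103) came next to Timp2 (192), and their spread does not separate them from each other or from Timp1 (112 ± 39.1). In knockout granules Mmp14 (353 ± 30.7) lay above Timp2 (236 ± 10.4), with Mmp3 (260 ± 125) not separable from either. With the union of exons as the length this order was reversed, Mmp14 being at 192 and Timp2 at 225. The exon union of Mmp14 is 5960 bases and its transcript 3238.

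Summed over the 7 Mmps, CPM per kilobase was 172 and 152 in control total, 138 and 126 in control granule, 428 and 447 in knockout total and 934 and 653 in knockout granule libraries. The 3 Timps summed to between 290 and 377 in all 8 libraries. The ratio of the Timp sum to the Mmp sum was therefore 1.97 and 1.92 in control total, 2.44 and 2.79 in control granule, 0.880 and 0.649 in knockout total and 0.396 and 0.519 in knockout granule libraries. Every knockout library was below 1 and every control library above it, also with the union of exons as the length. The Mmp sum includes Mmp3 and Mmp13, whose genotype differences were known when the list was drawn up, so nothing is read from this separation. In knockout total replicates 1 and 2 the sum held 104 and 209 from Mmp3 and 213 and 66.8 from Mmp13. The source of the Mmp sum differed: Mmp3, Mmp10 and Mmp13 made up 77.3% and 64.7% of it in knockout total, against 44.8% and 32.8% in knockout granule and 8.09% to 17.7% in control libraries. Mmp2 and Mmp14 made up 51.7% and 63.0% of it in knockout granules and 19.2% and 27.6% in knockout total RNA. These are ratios of RNA and not of protein.

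**Figure D4:**
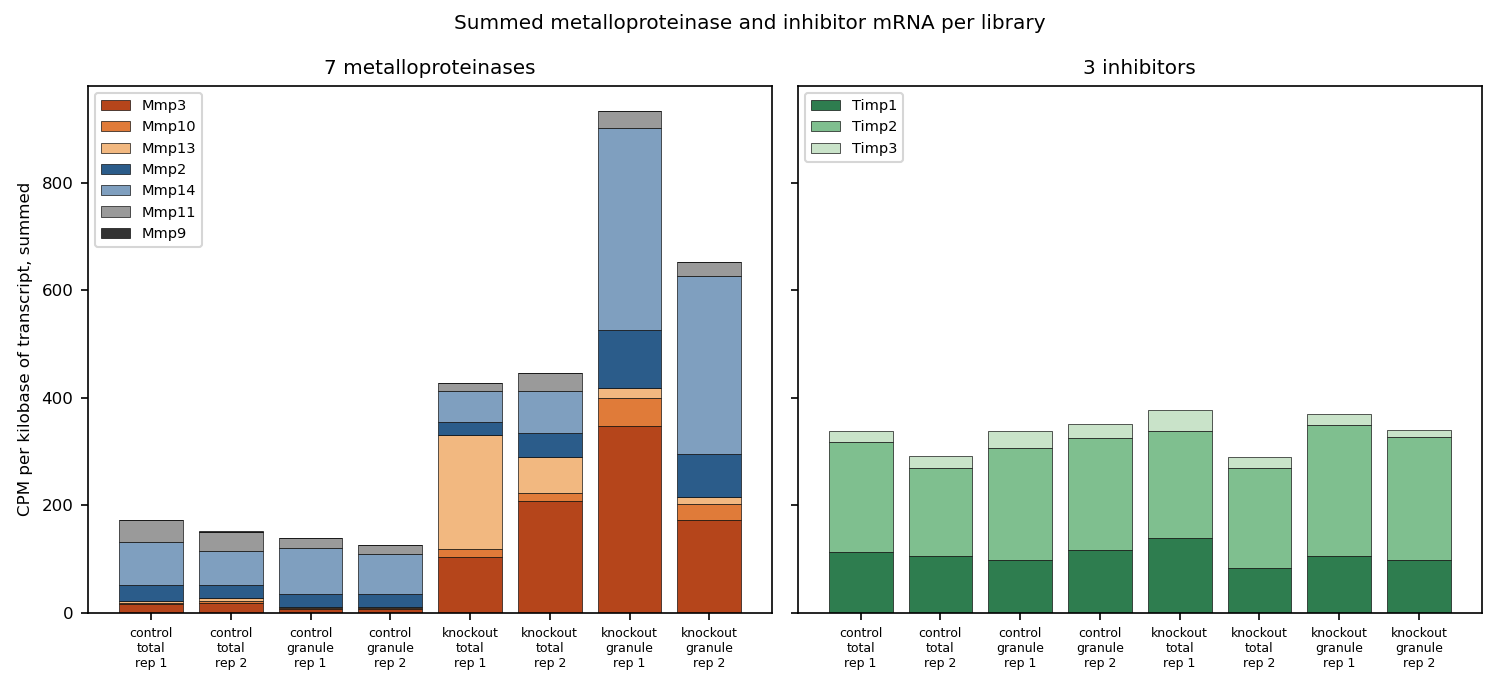
Summed level of the 7 Mmps and of the 3 Timps in each library, in CPM per kilobase of spliced transcript, with the bars starting at 0. The Mmp sum exceeds the Timp sum in the 4 knockout libraries and stays below it in the 4 control libraries. It includes Mmp3 and Mmp13, whose genotype differences were known when the list was drawn up.

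Over the 8 libraries, Mmp3 and Mmp10 had a Pearson correlation of log2 CPM of 0.96, and Mmp2 and Mmp14 of 0.93. Mmp13 and Mmp14 had 0.00 and Mmp13 and Mmp9 had 0.82. The points share 4 groups and the same libraries, so these values describe group patterns. The genes most like Mmp3 by this measure, of 10208 compared, were Col23a1 (0.997), Bambi (0.988), Pdgfrl (0.987), Inhbb (0.985) and Map3k5 (0.978). Those most like Mmp13 were Ifi204 (0.985), Slc7a2 (0.984), Ly6e (0.983), Smpdl3b (0.982) and Hoxb7 (0.981). For Timp1 the highest values were lower, Fxyd5 (0.918), Pmp22 (0.918), Ppa2 (0.905), Mcub (0.903) and Snx3 (0.894).

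The other genes of the chromosome 9 cluster had low counts. Between Mmp13 and Mmp3 lie Mmp12 (36 to 369 counts per library) and Mmp1b (0 to 8 counts), and between Mmp3 and Mmp10 lies Mmp1a (0 to 6 counts), annotated as a polymorphic pseudogene. Beyond Mmp10 lie Mmp8 (16 to 137 counts), Mmp27 (9 to 31 counts), Mmp20 (0 or 1 count) and Mmp7 (0 to 8 counts). In the same libraries Mmp3 had 1268 to 68821 counts, Mmp13 606 to 63253 and Mmp10 340 to 9780. Mmp1b and Mmp1a, at single-digit counts, also hold the AP-1 heptamer and TATAAA in their windows.

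**Figure D5:**
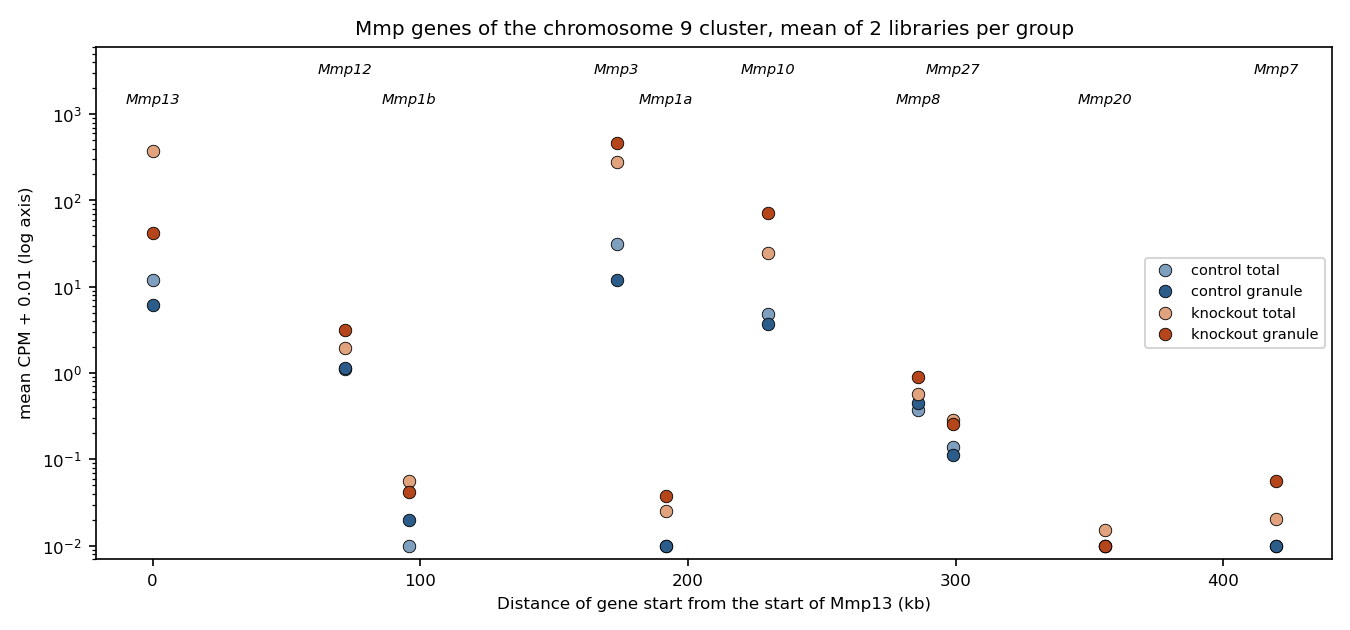
Level of the 10 Mmp genes of the chromosome 9 cluster in genome order, as the mean CPM of the 2 libraries of each group plus 0.01 on a log axis, against distance from the start of Mmp13. Mmp13, Mmp3 and Mmp10 stand above the other genes in every group, and Mmp1a, Mmp1b, Mmp20 and Mmp7 lie near 0 throughout.

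Of 17 further family members, 12 were tested. Mmp19 was lower in control granules than in control total RNA, at a log2 fold change of -2.25 (adjusted p = 0.0088), and higher in knockout than in control granules, at 1.39 (adjusted p = 0.0284). Its exons overlap those of other genes over 28.3% of their bases. Mmp28 was lower in granules in both genotypes (-2.80, adjusted p = 0.0201, and -1.79, adjusted p = 0.0439). Mmp25, named after its values were seen, was higher in knockout granules than in control granules (3.08, adjusted p = 0.0262) and knockout total RNA (2.31, adjusted p = 0.0362), at no more than 1.31 CPM. Between genotypes in total RNA, edgeR called 0 of the 12 (0 at an unadjusted p under 0.05, and 0 by DESeq2). The shares of all genes were 0.412%, 24.8% and 16.4%, in that order. The median genotype difference in granules was 1.15 over the 12 against 0.08 over all genes.

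The enzymes and proteins that act around the Mmps were described from lists of related genes. Of 17 tested Adam and Adamts proteases, which shed surface proteins or cut proteoglycans, 2 were higher and 2 lower in knockout than in control granules, where 9.45% of all genes were called. Adamts7 was higher (3.34, adjusted p = 0.0086), as was the low-level Adamts9 (2.72, adjusted p = 0.0105, named after its values were seen), and Adamts5 (-2.17, adjusted p = 0.0112) and Adam9 (-2.16, adjusted p = 0.016) were lower. Adamts5, an aggrecanase, had been 2.23 higher in control granules than in control total RNA (adjusted p = 0.0108). In knockout cells Adam19 was higher (1.14) and Adamts6 (-2.17) and Adam9 (-1.52) were lower in granules than in total RNA, together with Adamts12, which has a mean under 5 CPM.

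Plasmin, made from plasminogen by the urokinase Plau, activates several pro-Mmps. Plau was higher in granules than in total RNA in control (1.13, adjusted p = 0.0472) and knockout cells (1.46, adjusted p = 0.016). Among 12 tested genes of activation and clearance, 2 were higher in control granules than in control total RNA, Thbs1 (1.83) and Cav1 (2.09), and 1 was lower in knockout granules. That gene, Reck, a membrane-anchored inhibitor of Mmps, was lower in knockout granules than in knockout total RNA (-1.60, adjusted p = 0.0173) and than in control granules (-1.39, adjusted p = 0.0382). Its mean is under 5 CPM, and it was named after its values were seen. The share of all genes called was 10.1% in control granule against total and 17.6% in the same comparison of knockout cells. Between genotypes in granules it was 9.45%.

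Of 20 tested inducers of Mmp transcription, edgeR called 0 between genotypes in total RNA, with 6 at an unadjusted p under 0.05 (24.8% of all genes). DESeq2 called 5 higher (Il6, Fgf2, Fosl1, Etv4 and Runx2) and 1 lower (Fosl2), and 16.4% of all genes. Fos was 12.1 to 13.3 CPM in the total libraries of both genotypes, and 89.9 to 97.2 in control granule and 117 to 184 CPM in knockout granule libraries. It was higher in granules than in total RNA by 2.88 in control (adjusted p = 0.00485) and 3.61 in knockout cells (adjusted p = 0.00213), and Jun by 1.62 and 1.32. In each genotype 4 inducers were higher and 1 lower in granules than in total RNA, with 10.1% of all genes called in control and 17.6% in knockout cells. Cebpd was lower in granules in both genotypes (-2.75 and -1.77), Runx2 was 1.78 higher in control granules (adjusted p = 0.0227) and Junb 4.01-fold higher in knockout granules (adjusted p = 0.0495). Within granules 1 inducer was higher in knockout cells, the cytokine Il6 (2.40, at a mean under 5 CPM), and 2 were lower, Fosl2 (-1.25) and Ets1 (-1.10). The share of all genes called there was 9.45%.

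Among 18 tested substrates, 3 were higher and 0 lower in knockout than in control granules, 3 higher and 3 lower in knockout granules than in knockout total RNA, and 1 higher and 1 lower in the same comparison of control cells. The shares of all genes called in these comparisons were 9.45%, 17.6% and 10.1%. Col1a1 was higher in knockout granules than in control granules (1.39, adjusted p = 0.0231) and knockout total RNA (1.56, adjusted p = 0.0104). Col3a1 was 1.69 higher in knockout than in control granules (adjusted p = 0.0109), after having been lower in control granules than in control total RNA (-1.09, adjusted p = 0.0338). Fn1 (-1.17) and Lamc1 (-1.53), which encode fibronectin and a laminin chain, were lower and Col5a1 (1.21) higher in knockout granules than in knockout total RNA. The list's median between genotypes in granules was 0.32, against 0.08 for all genes. Summed fibroblast markers, which include Col1a1, were 6390 to 7023 CPM in knockout granules and 5494 to 5678 in control granules. They were 4108 to 5228 in control total and 3173 to 3503 in knockout total libraries. Between genotypes in granules 7 of the 8 markers had a positive fold change, with 2 called higher and 1 lower (9.45% of all genes called). Vim, a large part of the sum, stood at 3196 and 3437 CPM in control granules and 1269 and 1354 CPM in knockout granules. Col1a1 stood at 1551 and 1249 against 3966 and 3382 CPM. The part of these markers in the granule values of the Mmps was not tested.

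Since Mettl3 methylates adenosine within short motifs, the spliced transcripts were searched for GGACT, a common form of that motif, on the transcript strand. Mmp3 held 4 copies (2.22 per kilobase) and Mmp14 held 6 (1.85 per kilobase), above the median of 1.05 per kilobase over 15380 protein-coding genes. Mmp13 held 2 (0.748 per kilobase) and Mmp10 held 1 (0.581 per kilobase), below it. Mmp2, called between genotypes in granules, held 3 (0.975 per kilobase). No map of m6A was used, and the part of m6A in the levels of these genes was not tested. The GC content of the Mmp13 transcript, 41.7%, was at the 10.6th percentile of these genes, those of Mmp3 and Mmp10 were 45.9% and 46.0%, and those of the other 7 genes ran from 46.8% to 56.6%. With the GC trend of each library removed, the calls between genotypes in total RNA were, as without it, Mmp3 and Mmp10 (Mmp13 aside). In granules they were again Mmp2, Mmp10, Mmp13 and Mmp14 (Mmp3 aside). Of all genes 3.74% and 23.0% were then called, against 0.412% and 9.45% without the removal. With a replicate block as well, only Mmp10 was called in total RNA (Mmp13 aside), and 1.65% of all genes. The part of GC content in these values was not tested.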

How the data were processed

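Poly(A) RNA of 8 libraries was analysed from the deposited table of raw counts per Ensembl gene, with 1 column per library and 0 columns left without a sample. The submitters' processing notes name STAR, DESeq2 and the mouse builds GRCm38 and mm10, with no roles. The counting program, strand setting and annotation release are not given in the sources used here. Of 39017 identifiers 37693 matched GENCODE M21 (GRCm38), which gave names, coordinates and lengths, and the others held 0.167% to 0.221% of counts.

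Counts were fitted in R 4.3.3 with edgeR 4.0.16 (quasi-likelihood F-test, robust, TMM scaling, expression filter), with 1 mean for each of the 4 groups over all 8 libraries and 4 residual degrees of freedom. The Benjamini-Hochberg adjustment ran over 18952 genes, and an adjusted p under 0.05 is a call. Standard errors come from the F statistic. All 10 genes passed the filter. With 2 replicates a group, p-values set a difference against the spread between these samples, estimated over all 4 groups and moderated across genes. A library outside a comparison can therefore change its calls. The script was tested on simulated counts with 200 changed genes. Same-numbered replicates did not deviate together (correlations from -0.603 to 0.192). The replicates of the total groups differed along GC content in opposite senses, so this check cannot decide whether the numbers pair the samples. The main fit used no pairing.

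The 10 genes, the lists of related genes and the tests were chosen with earlier results of these data known, and the motifs after the sequences had been read. Promoter windows are from RefSeq (GRCm38.p6). Named were the 10 genes, the chromosome 9 cluster, the 5 genes most like Mmp3, Mmp13 and Timp1 over the 8 libraries, and at most 4 called genes per list with a mean of at least 5 CPM. For the plasmin system only Plau is described, and another gene that the rule names is not reported here. Alternatives covered scaling, filters, DESeq2 1.42.0, a fit of only the groups compared, a replicate block, removal of each library's GC trend and leaving out each library. Voom with library weights (limma 3.58.1) and a crossed block were added after seeing the data. Exon overlaps came from bedtools 2.31.1.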

Additional observations from a re-analysis of the deposited data

How the results depend on the processing

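Numbers of the 10 genes called changed with several settings, and include Mmp13 in total RNA and Mmp3 in granules, which were known when the list was drawn up. In control granule against total (0 called), 2 were called with no filter and with DESeq2. With only the groups compared, with the GC trend removed and with voom 3 were called. With the replicate block and GC trend removed 1 was called. These fits called 13.2%, 23.8%, 42.4%, 19.9%, 39.3% and 16.1% of all genes, in that order, against 10.1% in the main fit. In knockout granule against total (4 called), 0 were called with only the groups compared and 2 with voom. Of all genes 0% and 5.69% were called in these fits, against 17.6% in the main fit. Between genotypes in total RNA (3 called), 1 was called with library size scaling (0.195% of all genes) and with voom (0.206%). With only the groups compared and with the replicate block 0 were called (0% in each), against 0.412% of all genes in the main fit. In the interaction (0 called), 6 were called with no filter, 5 with DESeq2 and 2 with the GC trend removed, with or without the block. With voom and with a filter at a mean of 5 CPM 1 was called in each. All of these settings called a larger share of all genes than the main fit, except the filter at 5 CPM, which called a smaller share. Between genotypes in granules the number was 5 to 7 in all settings that kept every library. It was 7 with only the groups compared (57.3% of all genes called) and with voom (55.2%), against 9.45% of all genes in the main fit. Leaving out 1 library gave 0 to 3 calls in control granule against total, 1 to 8 in knockout granule against total, 0 to 5 between genotypes in total RNA, 0 to 7 in granules and 0 to 7 in the interaction. The replicate block gave 0, 3, 0, 5 and 0 calls in these 5 comparisons, with 3.07%, 10.0%, 0%, 3.54% and 0% of all genes called. The crossed pairing, with the control total numbers exchanged, gave 0, 4, 3, 5 and 0, with 12.4%, 16.9%, 0.591%, 8.94% and 0.496%. The share of all genes called changed with the settings as well, also over the fits that left out 1 library. Nothing is therefore read from these counts. The cause of these changes was not tested. Library size scaling moved the median of all genes from -0.06 to -0.19 in control granule against total and from 0.09 to 0.28 in the interaction.

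Signs changed only for values that had not passed. Granule against total in control cells became 0.16 for Mmp2 and 0.26 for Timp1 with the GC trend removed (0.16 and 0.27 with the block as well), and 0.043 for Timp1 with no filter. Knockout against control in total RNA became 0.31 for Mmp14 with the GC trend removed, with or without the block, -0.044 for Timp2 and -0.10 for Timp1 with library size scaling, and -0.026 for Timp1 with voom. In granules Timp1 became 0.0090 with library size scaling and 0.10 with the filter at 5 CPM. Its interaction became 0.11 and 0.078 under the same settings, and that of Timp2 became -0.039 with no filter, -0.40 with the GC trend removed and -0.39 with the block as well. Over the fits that left out 1 library, the ranges that cross 0 were -1.07 to 0.10 for Mmp9 and -0.10 to 0.15 for Timp1 in control granule against total, and -0.17 to 0.96 for Mmp11 and -0.58 to 0.27 for Timp1 in knockout granule against total. Between genotypes in total RNA they were -0.039 to 0.80 for Mmp2, -0.21 to 0.087 for Mmp14, -0.38 to 0.46 for Timp1 and -0.029 to 0.23 for Timp2, and in the interaction -0.60 to 0.28 for Timp1 and -0.10 to 0.16 for Timp2. With 2 replicates a group and the spread of the knockout total libraries, differences in that group are the least precise. Mmp9, at 1.11 to 4.86 CPM, is limited by its low level.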
